A study of Sus scrofa with 17 samples.

Results

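This account follows 33 genes that mark leukocytes or respond to interferon, read from the longissimus muscle RNA of weaned piglets. The members were chosen by name: 35 symbols were proposed, 23 for leukocytes and 12 for interferon, and a gene was kept when the Ensembl identifier carrying its symbol had a row in the counts. That left 22 of the 23 leukocyte markers and 11 of the 12 interferon-response genes, out of 31908 genes counted. The 2 symbols without a row under their own identifier were B2M and IFIT3. All 33 members passed the filter on low counts that left 14203 genes to test.

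Male Large White × Duroc piglets entered the trial at 28 days of age, were caged singly and pair-fed, and received their diet for 2 weeks after 5 days of adaptation. Control piglets ate a wheat, maize and soybean meal diet with 0% seaweed (6 libraries), UL piglets ate a diet holding 7% of the green seaweed Ulva lactuca (6 libraries), and ULU piglets ate the UL diet with 0.01% ulvan lyase, which breaks down ulvan, a polysaccharide of the seaweed's cell wall (5 libraries). Each library is 1 piglet, so the spread between libraries is a spread between animals. The labels call the muscle longissimus dorsi and the study's methods call it longissimus lumborum.

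PTPRC encodes CD45, a phosphatase carried by nearly every leukocyte, and the other leukocyte markers tell macrophages (CD163, CSF1R, MRC1) from T cells (CD3D, CD3E). Skeletal muscle holds resident macrophages between its fibres and few lymphocytes, and its tissue macrophages are a known source of the complement subunits C1QA, C1QB and C1QC. Interferon switches on effectors such as ISG15, MX1 and IFIT1, which muscle fibres as well as leukocytes can make, so the members were read in these 2 groups. In bulk muscle RNA, fewer cells of a type and less RNA per cell cannot be told apart.

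The libraries held from 16137365 to 26546810 counted reads, with group medians of 17240387 (control), 18398491.5 (UL) and 22320520 (ULU). Levels are given as CPM, counts divided by the library total after TMM scaling in edgeR and brought to a common total. In this unit 3 reads, taken as the smallest detectable signal, came to between 0.130 and 0.195 CPM, which covers counting error only. The defining transcripts of muscle fibres dominated every library, with 5 fibre markers (of 7 named) summing to between 101190 and 269224 CPM. The 22 leukocyte markers summed to between 333 and 968 CPM, of which CD74 alone gave between 235 and 496 CPM. No library was left out of the comparisons unless stated.

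Levels of different genes were compared only as CPM per kilobase of exonic length, averaged over the 17 libraries. The RefSeq span of the named gene holds 25.2% of this length for CD3D, 44.4% for CD8A and 49.0% for C1QB. For C1QC it holds 92.0%. A longer length gives a lower value, so the order below depends on the annotation of each row. On this scale the members spanned from 0.278 for CD8A, the co-receptor of cytotoxic T cells, to 103.8 for CD74, the invariant chain that escorts MHC class II molecules. The complement subunit C1QC came next with 43.3, and ISG15, a ubiquitin-like protein that is attached to other proteins after interferon, followed with 35.9. The place of ISG15 rested on 1 control piglet, as described below. TYROBP, a signalling adaptor of myeloid receptors, stood at 16.4, C1QA at 15.9 and C1QB at 14.1, neighbours whose ranges over the libraries overlapped. The macrophage receptors were lower, at 4.05 for CSF1R, the receptor for colony-stimulating factor, 2.10 for CD163, the haemoglobin scavenger, and 1.5 for the mannose receptor MRC1. The T cell markers CD3D (0.537), CD3E (0.321) and CD4 (0.317) were near the bottom, with between 5 and 67 reads in a library over the 4 T cell markers.

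**Figure D1:**
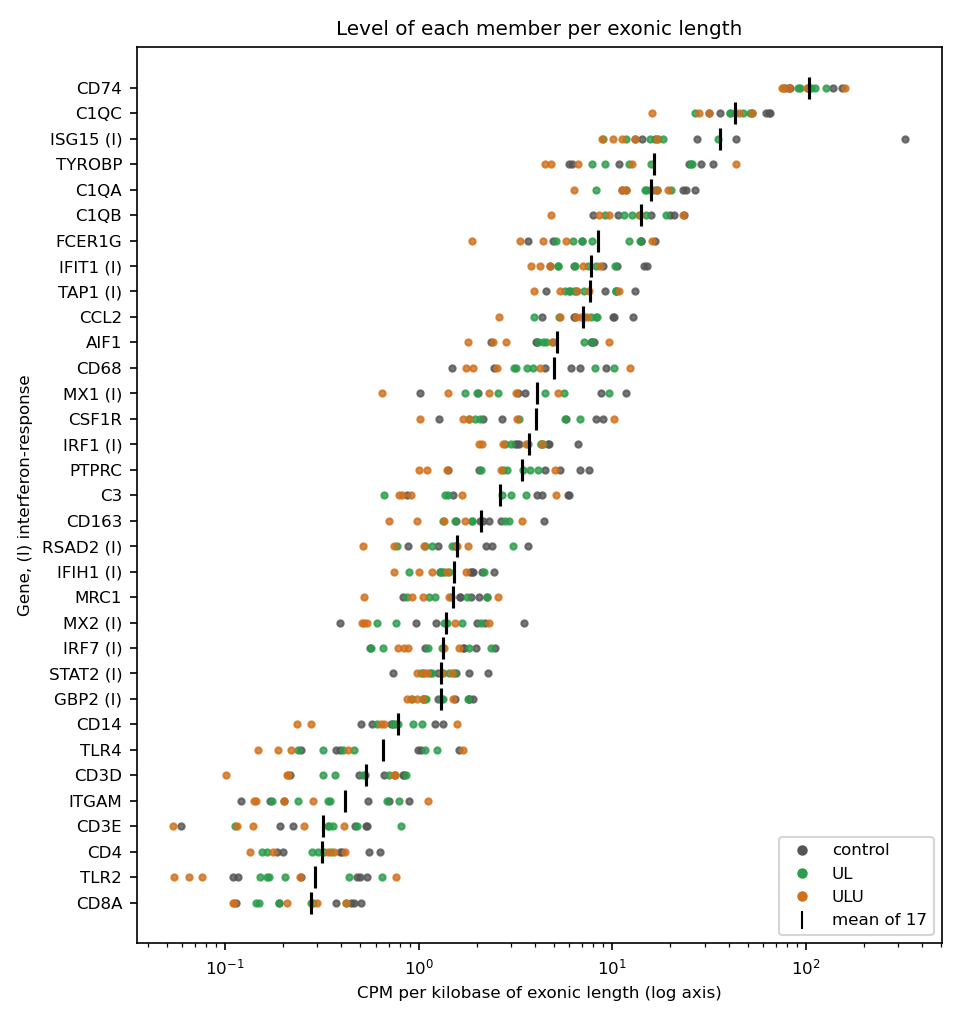
CPM per kilobase of exonic length (x axis, log scale) of the 33 members (y axis, ordered by mean), with a point for each of the 17 libraries coloured by diet and a bar at the mean, (I) marking interferon-response genes. CD74 leads at a mean of 103.8 and CD8A closes at 0.278, and the 1 control point far to the right in the row of ISG15 is control piglet 21.

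Several of these rows do not stand for 1 gene alone. The CD74 row (chr2:151402212-151433844 in Sscrofa11.1, minus strand) has 13.4% of its exonic bases within the RefSeq span of RPS14, a ribosomal protein gene, so reads of both genes can be in it. The ITGAM row has 34.8% of its exonic bases in the RefSeq span of ITGAM and 34.1% in that of ITGAX, which encode related integrin chains of myeloid cells. The IFIT1 row (chr14:101214710-101249501, plus strand) has 48.0% of its exonic bases in the span of IFIT1 and 51.2% in that of IFIT3, and it may hold reads of both. In addition, 100% of the IFIT1 row lies in the span of LIPA and 100% of the IRF1 row in that of SLC22A5. A span runs from the start to the end of a gene, introns included. The STAT2 row shares 65.8% of its exonic bases with other rows, and the CD4 row 28.1%. The file header shows no option for reads that overlap several rows, and such reads are then left out of the counts.

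A leukocyte marker differed 7.14-fold (median over the 22 genes) between its highest and lowest library, with a range from 2.11-fold for CD74 to 15-fold for CD3E. For the interferon-response genes the median was 3.96-fold, from 2.20-fold for the guanylate-binding protein GBP2 to 36.8-fold for ISG15. The coefficient of variation between piglets of a diet had a median over the leukocyte markers of 45.9% among control piglets, 36.0% among UL piglets and 74.9% among ULU piglets. Over all 14203 genes the corresponding medians were 24.4%, 21.7% and 22.8%. The interferon-response genes had medians of 42.0%, 29.7% and 34.0%. The median of the leukocyte markers lay above that of all genes in each diet, without a test, although CD74, CD14 and C1QC lay below the all-gene median in UL.

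The same piglets were high or low for many markers at once. Within ULU, piglet 42 had the highest level of 19 of the 22 leukocyte markers and piglet 43 the lowest of 18. Control piglets 21, 22 and 26 shared the highest levels of 21 markers (6, 7 and 8), whereas piglet 25 was lowest for 13 and piglet 24 for 9. Among UL piglets, piglet 30 was highest for 14 markers and piglet 31 lowest for 11. Of the 11 interferon-response genes, control piglet 22 was highest for 9, and ULU piglets 42 and 44 were highest for 6 and 5. UL piglet 27 was highest for 10 of these 11 genes and for 0 of the 22 leukocyte markers.

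**Figure D2:**
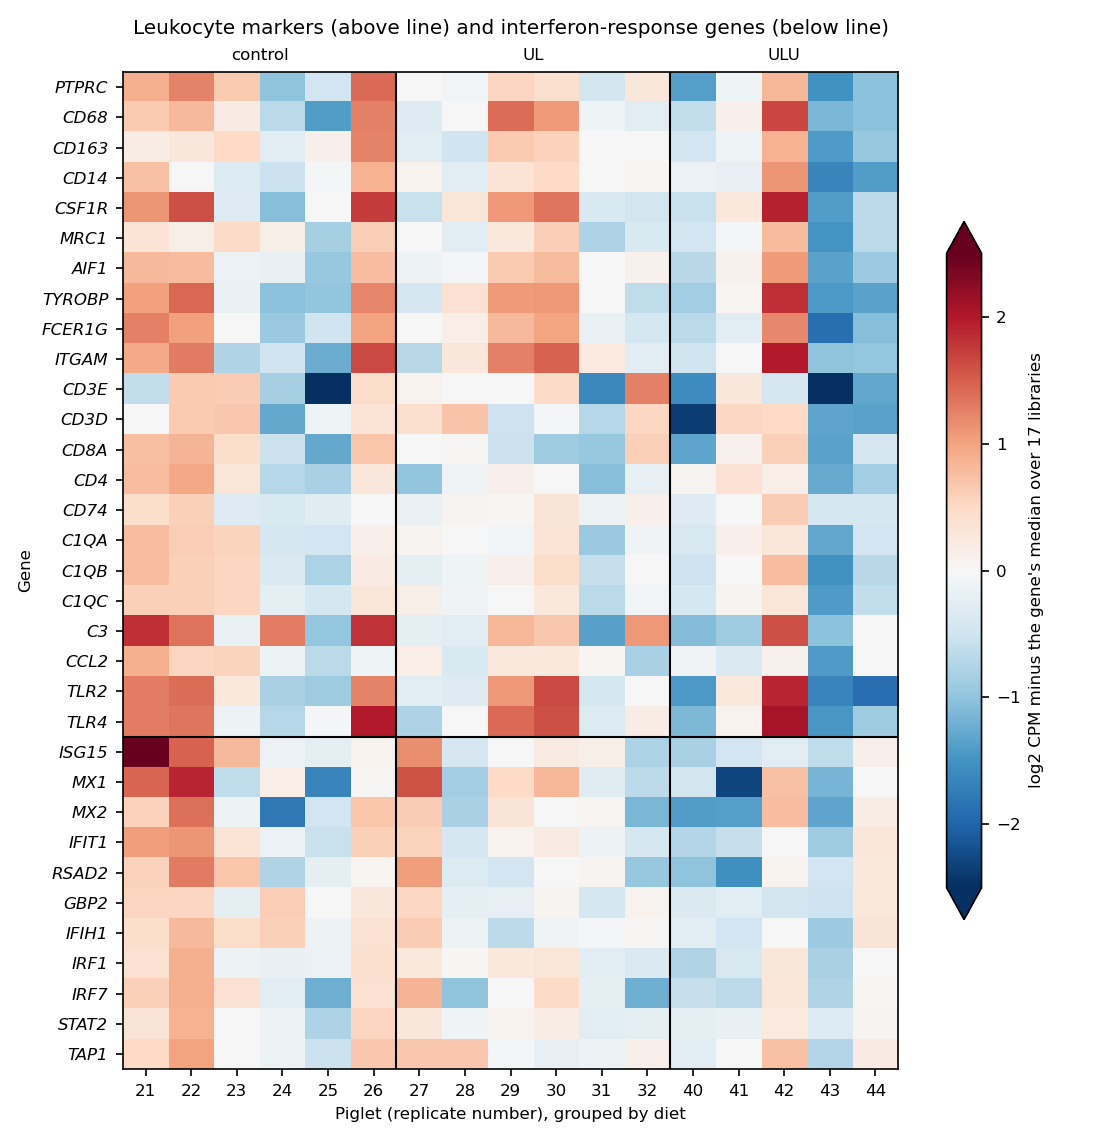
Heat map of log2 CPM minus the median of the gene over 17 libraries (colour, capped at 2.5 in either direction) for 33 members (rows, leukocyte markers above the horizontal line) and 17 piglets (columns, by diet). ULU piglet 42 is red for most leukocyte markers and ULU piglet 43 blue, while UL piglet 27 is red mainly for interferon-response genes.

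Pairs of members were compared across the 17 piglets as log2(CPM + 0.5) after the mean of each diet was removed, for 6 pairs picked with the data known. The permutations ran over all 17 piglets, not within diets, and make no allowance for the means removed. Their p-values may therefore be too small. TYROBP and FCER1G, adaptors that pair with myeloid receptors, had Pearson's r = 0.964 and Spearman's rho = 0.936 (permutation test with 100000 permutations, p = 1e-05 for each, the smallest they can give, adjusted p = 3e-05). C1QA and C1QC, neighbouring genes on chromosome 6, had r = 0.980 and rho = 0.953 (permutation p = 1e-05 for each, adjusted p = 3e-05). The T cell receptor chains CD3D and CD3E had r = 0.687 and rho = 0.762 (permutation p = 0.0025 and 0.00054, adjusted p = 0.003 and 0.0011). For MX1 and MX2, dynamin-like antiviral GTPases, r was 0.710 and rho 0.691 (permutation p = 0.0014 and 0.0028, adjusted p = 0.0022 and 0.0034). CSF1R and CD163 of the macrophage lineage had r = 0.814 and rho = 0.745 (permutation p = 5e-05 and 0.00082, adjusted p = 0.0001 and 0.0012).

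The pair that crossed the groups, CSF1R and IFIT1, had r = 0.520 and rho = 0.510 (permutation p = 0.033 and 0.038, adjusted p = 0.033 and 0.038). Without the 2 piglets farthest from the median of the first gene, r was 0.949 for TYROBP and FCER1G, 0.972 for C1QA and C1QC, 0.633 for CD3D and CD3E, 0.666 for MX1 and MX2, 0.676 for CSF1R and CD163, and 0.498 for CSF1R and IFIT1. Within single diets the CSF1R and IFIT1 pair ranged from r = 0.148 in UL to 0.744 in control.

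The comparison of ULU with control asks what seaweed and enzyme did together. No member was called at an adjusted p-value under 0.05 by edgeR's quasi-likelihood test in 1 model of all libraries, against 2.98% of all 14203 genes. At an unadjusted p-value under 0.05, 2 of the 22 leukocyte markers were lower in ULU (PTPRC and C1QC), close to the 8.78% of all genes that were lower at that limit, and 6 of the 11 interferon-response genes were lower (ISG15, IFIH1, IFIT1, GBP2, IRF1 and RSAD2). DESeq2 on all libraries called 2 interferon-response genes, ISG15 (adjusted p = 0.0108) and IFIT1 (adjusted p = 0.0466), and no leukocyte marker, where it called 8.97% of the genes it gave an adjusted p-value. No member was higher at that limit, as 10.1% of all genes were. No member had ranges in ULU and control that did not overlap, which 1.09% of all genes had in the lower and 2.3% in the higher direction.

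All 22 leukocyte markers and all 11 interferon-response genes had a fitted log2(fold change) below 0 in ULU vs control, as did 53% of all genes. The median was -0.49 over the leukocyte markers and -0.66 over the interferon-response genes, against -0.03 over all genes. These genes were chosen with such results known and move together in a piglet, so the counts describe the 2 lists and carry no test.

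**Figure D3:**
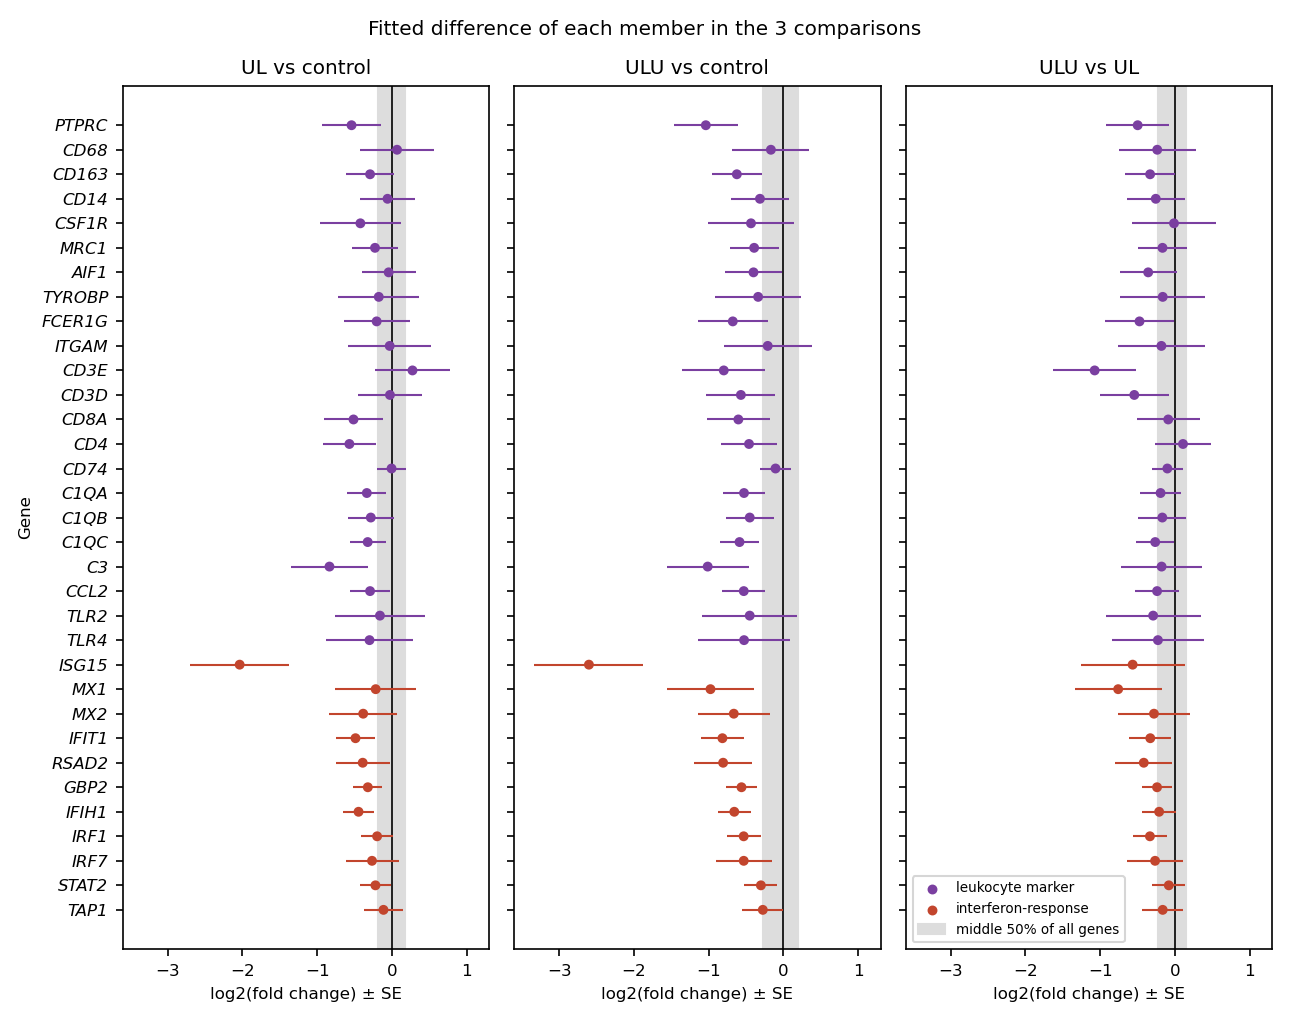
Fitted log2(fold change) ± SE (x axis) of the 33 members (rows) in the 3 comparisons, with leukocyte markers in purple, interferon-response genes in red and the middle 50% of all tested genes as a grey band. Most points lie left of 0, and ISG15 stands farthest left in UL vs control (-2.04) and ULU vs control (-2.60).

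Among leukocyte markers, PTPRC (chr10:21466373-21764560, plus strand) had the smallest p-value of ULU vs control. Its level had a lowest, median and highest value of 9.0, 31.3 and 48.3 CPM in control and of 13.3, 20.1 and 26.3 CPM in UL. In ULU piglets 40 to 44 it was 7.03, 16.9, 32.2, 6.36 and 8.90 CPM. Of the 5 ULU piglets, 3 were below every control piglet and piglet 42 was above the control median, so the ranges overlapped. In ULU vs control PTPRC had a log2(fold change) of -1.04 (SE 0.43, edgeR adjusted p = 0.191). Without ULU piglet 42 it was -1.59 (adjusted p = 0.0418). Other removals took it the other way, to -0.85 (adjusted p = 0.352) without ULU piglet 43 and -0.82 (adjusted p = 0.347) without control piglet 26.

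CD163 (chr5:63300146-63334498, plus strand), a scavenger receptor of tissue macrophages, had a lowest, median and highest level of 11.9, 17 and 33.8 CPM in control and of 10.2, 14.4 and 22.5 CPM in UL. The ULU piglets had 10.3, 13.3, 26.2, 5.37 and 7.49 CPM. Piglets 40, 43 and 44 lay below the control range and piglet 42 lay high in it. In ULU vs control the log2(fold change) was -0.62 (SE 0.34, edgeR adjusted p = 0.331).

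For CSF1R the ULU piglets had 8.91, 15.8, 49.9, 4.98 and 8.32 CPM, beside a control range from 6.27 to 44 CPM with a median of 20.8 and a UL range from 8.96 to 33.3 CPM with a median of 13.2. TYROBP showed the same shape, with 3.93, 7.47, 25.7, 2.66 and 2.87 CPM in ULU and between 3.55 and 19.5 CPM in control. Piglet 42 exceeded every control and UL piglet for both genes, while the other 4 ULU piglets were below the control medians. Over the 9 macrophage and myeloid members, which include the lysosomal CD68, the lipopolysaccharide co-receptor CD14, MRC1, the actin-binding AIF1, FCER1G and ITGAM, the summed level had a median of 104.3 CPM in control piglets (range 52.3 to 174), of 70.8 CPM in UL piglets (61.9 to 145) and of 49.9 CPM in ULU piglets (27.5 to 198). Their log2(fold change) in ULU vs control ranged from -0.68 to -0.17.

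The complement subunits moved less between piglets than CSF1R or TYROBP did. C1QC (chr6:80592478-80597459, plus strand), which joins C1QA and C1QB in the recognition molecule of the classical pathway, had 44.4, 63.3, 74.3, 22.6 and 39.3 CPM in ULU. In control its lowest, median and highest levels were 44.4, 81.0 and 91.4 CPM, and in UL 37.6, 58.8 and 72.7 CPM. Piglet 43 lay below every other library, and the control and ULU ranges overlapped. Its unadjusted p-value in ULU vs control came from edgeR and was 0.0329, with an adjusted p of 0.217.

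C3, the component on which all complement pathways meet, differed more among control piglets, from 4.55 to 31.5 CPM with a median of 22.2. The UL piglets ranged from 3.47 to 18.8 CPM around a median of 10.8, and the ULU piglets had 4.15, 4.81, 26.9, 4.34 and 8.85 CPM. Control piglets 23 and 25 were as low as the UL and ULU piglets, and ULU piglet 42 was as high as the upper control piglets.

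The chemokine CCL2, which draws monocytes, and the Toll-like receptors TLR2 and TLR4, which sense bacterial lipoproteins and lipopolysaccharide, summed to a median of 17.1 CPM in control piglets, with 9.46 CPM for UL and 7.54 CPM for ULU. The ULU range, from 3.79 to 26.6 CPM, enclosed the whole UL range. In ULU piglet 42 TLR4 reached 13.4 CPM and TLR2 7.54 CPM, above every control and UL piglet.

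The T cell markers were near the limit of these libraries. CD3E had a lowest, median and highest level of 0.27, 1.58 and 2.45 CPM in control and of 0.512, 1.60 and 3.70 CPM in UL, and the ULU piglets had 0.524, 1.88, 1.17, 0.246 and 0.632 CPM. The lowest of these corresponds to 5 reads. The 4 T cell markers together had a median of 8.33 CPM in control piglets, 6.17 CPM with UL and 3.36 CPM with ULU, and the ranges overlapped.

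CD74 changed least of the leukocyte markers in ULU vs control. It had between 245 and 482 CPM in control, between 285 and 400 CPM in UL, and 255, 319, 496, 239 and 235 CPM in ULU piglets 40 to 44. ULU vs control gave a log2(fold change) of -0.10 (SE 0.21, edgeR adjusted p = 0.823), with a sign that turned when the mitochondrial share entered the model (0.060) or when single libraries were left out. The row over both RefSeq B2M genes carries no symbol and was not counted among the members. Control piglets had 403 ± 120 CPM (SD, n = 6), UL piglets 325 ± 65.6 CPM (SD, n = 6) and ULU piglets 286 ± 91.4 CPM (SD, n = 5), with a ULU vs control log2(fold change) of -0.49 (SE 0.23, edgeR adjusted p = 0.242).

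Among interferon-response genes, ISG15 (chr6:63363173-63364208, plus strand) had the smallest p-value. Control piglets 21 to 26 had 207, 27.7, 17.3, 9.0, 8.34 and 10.6 CPM. UL piglets 27 to 32 had 22.2, 7.46, 9.92, 11.7, 10.9 and 5.72 CPM, and ULU piglets 40 to 44 had 5.63, 7.15, 8.28, 6.41 and 10.8 CPM. Control piglet 21 stood above every other library, and 4 of the 5 ULU piglets were below every control piglet.

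The log2(fold change) of ISG15 was -2.60 (SE 0.73, edgeR adjusted p = 0.0592) in ULU vs control, and it was -0.93 (adjusted p = 0.146) without control piglet 21. Without control piglet 25 it was -2.82 (adjusted p = 0.0269), and IFIT1 was then also called (-0.96, adjusted p = 0.0391), beside 5.67% of all genes. These calls therefore turned on which control piglets were in the model.

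IFIT1, an effector that binds viral RNA, had a lowest, median and highest level of 21, 43.1 and 66.8 CPM in control and of 23.2, 30.8 and 45.5 CPM in UL. The ULU piglets had 18.8, 21.0, 31.1, 16.9 and 38.3 CPM, and 3 of them were below every control piglet. IFIH1, the cytosolic sensor MDA5, had 7.51, 6.43, 8.97, 4.78 and 11.2 CPM in ULU, beside a control range from 8.25 to 15.8 CPM and a UL range from 5.69 to 13.9 CPM. For IFIH1 piglets 40, 41 and 43 of ULU lay below the control range, and piglets 42 and 44 lay inside it.

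GBP2, a GTPase that attacks the vacuoles of pathogens, had 4.54, 4.87, 4.25, 4.04 and 6.95 CPM in ULU against a control range from 4.91 to 8.89 CPM. RSAD2, the antiviral enzyme viperin, had 3.58, 2.47, 7.58, 5.13 and 8.61 CPM against a control range from 4.26 to 17.7 CPM. IRF1, a transcription factor of the pathway, had 5.20, 6.69, 10.7, 5.03 and 8.80 CPM against a control range from 7.75 to 16.3 CPM. Of the 5 ULU piglets, 4 were below the control range for GBP2, 2 for RSAD2 and 3 for IRF1.

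MX1 (chr13:204843754-204868922, plus strand) had 6.25, 1.75, 14.2, 3.84 and 8.61 CPM in ULU, beside control values from 2.75 to 32.1 CPM with a median of 9.22 and UL values from 4.68 to 26 CPM with a median of 9.61. The diets overlapped over most of their ranges. ULU vs control gave a log2(fold change) of -0.98 (SE 0.59, edgeR adjusted p = 0.391). MX2, the transcription factors IRF7 and STAT2, and TAP1, which carries peptides to MHC class I molecules, had unadjusted p-values above 0.05 and values below 0 in the same comparison.

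**Figure D4:**
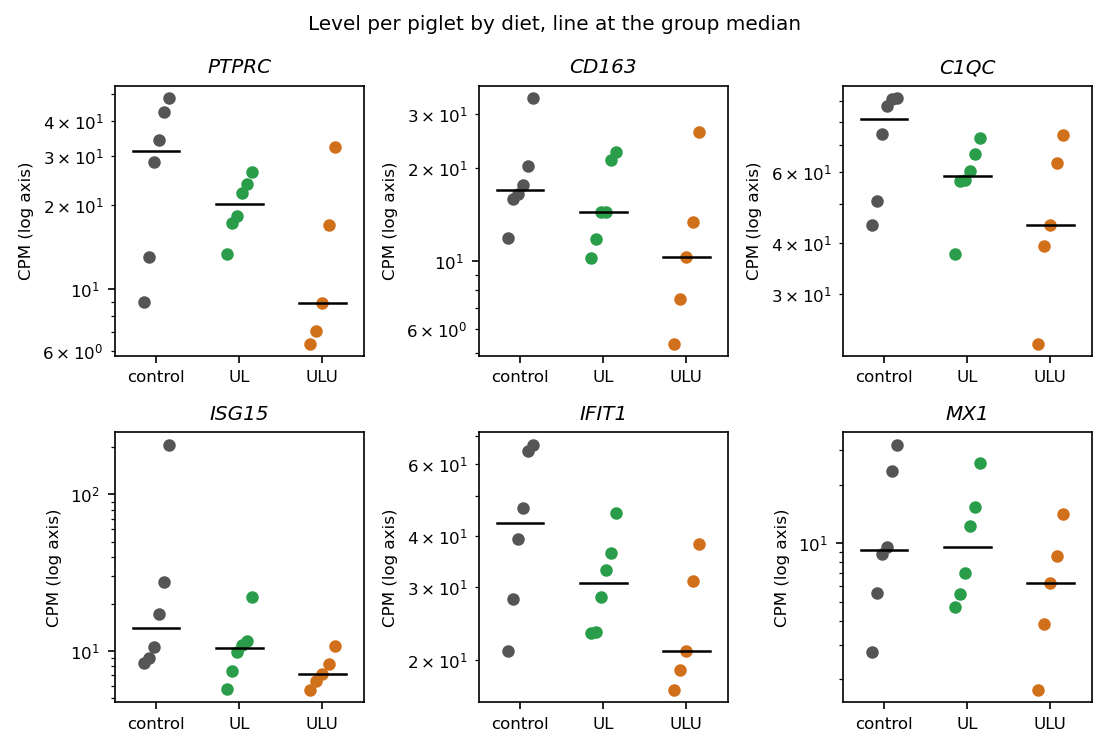
CPM (y axis, log scale) of 6 members in each piglet by diet (x axis), with a point for each piglet and a line at the group median. For PTPRC and CD163 the highest ULU point, piglet 42, lies above the control median, and for ISG15 control piglet 21 lies at 207 CPM.

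The count of leukocyte markers rested on ULU piglet 42. Without it, 17 of the 22 leukocyte markers were lower in ULU than in control at an unadjusted p-value under 0.05 (edgeR), beside 10.2% of all genes tested, and the median log2(fold change) was -0.94. PTPRC was then the 1 member called, beside 2.73% of all genes. Without ULU piglet 43 instead, 0 of the 22 were lower at that limit and the median was -0.29. Without control piglet 22 or 26, or ULU piglet 40 or 44, the count was also 0, without control piglet 21 it was 1, and without control piglet 24 or 25 or ULU piglet 41 it was between 4 and 5. The interferon-response genes ranged over less, with between 4 and 8 of 11 lower at that limit and a median between -0.82 and -0.50 whichever library was left out. In these fits 6.96% to 10.6% of all genes were lower at that limit.

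**Figure D5:**
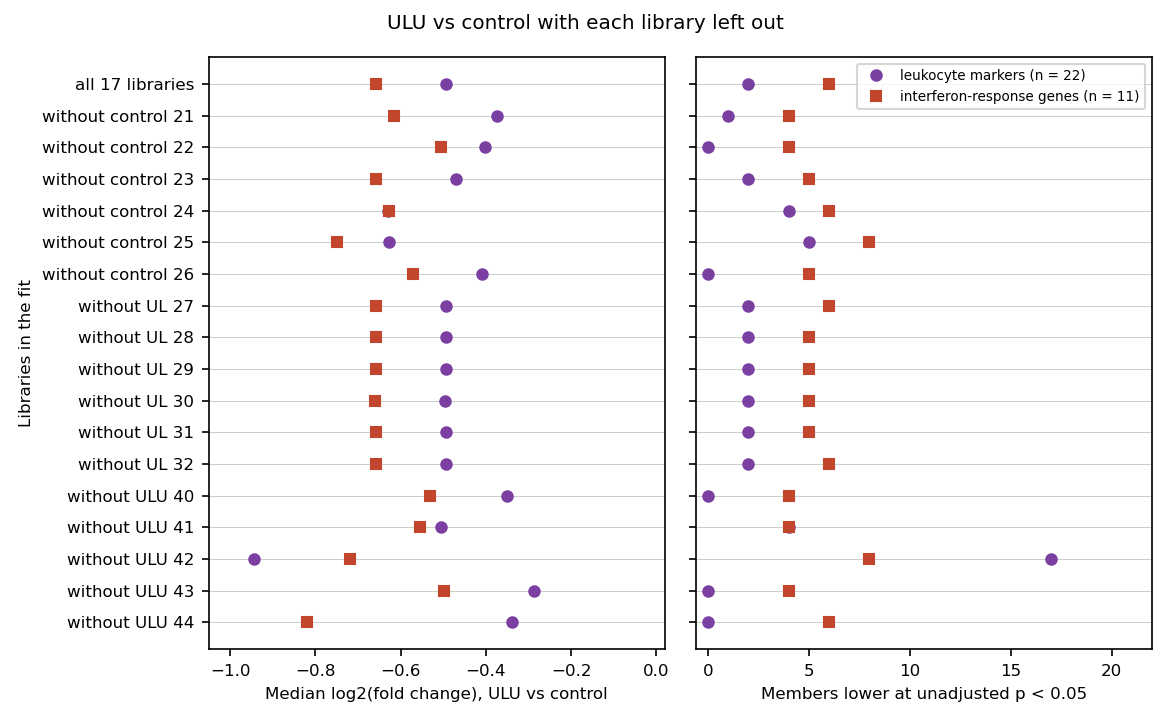
Median log2(fold change) of ULU vs control (left) and number of members lower at an unadjusted p-value under 0.05 (right), for leukocyte markers and interferon-response genes, in the model of all 17 libraries and with each library left out (rows). Leaving out ULU 42 moves the leukocyte markers to a median of -0.94 and a count of 17.

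Other measures moved with these results. The mitochondrial share of counted reads was 14% to 15.9% in control piglets, 8.64% to 14.8% with UL and 8.0% to 11.6% with ULU. With this share in the model, 0 members were called in ULU vs control, beside 0.0563% of all genes. At the unadjusted limit 7 of 11 interferon-response genes and 2 of 22 leukocyte markers were lower, beside 5.48% of all genes. The 5 muscle fibre markers summed to 101190 to 164533 CPM in control and 143578 to 269224 CPM in ULU, and the fast troponin TNNT3 was higher in ULU (log2(fold change) 0.66, SE 0.15, edgeR adjusted p = 0.0280). The library highest for fibre markers was ULU piglet 43 and the lowest of the ULU libraries was piglet 42, the reverse of their order for leukocyte markers. Among control piglets, piglet 25 was highest for fibre markers (164533 CPM) and lowest for summed leukocyte markers (433 CPM). Control piglet 22 was the reverse (101190 and 926 CPM). The UL piglets did not follow this order, as piglet 30 was the highest of them for both (169131 and 781 CPM).

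All 6 fibroblast markers were below 0 in ULU vs control, beside 53% of all genes. Of these, 3 were lower at the unadjusted limit, beside 8.78% of all genes. Fibroblast sums were 2650 to 5746 CPM in control and 2254 to 5745 CPM in ULU. All 4 adipocyte markers tested were also below 0, with sums of 75.9 to 580 CPM in control and 25.2 to 143 CPM in ULU. For endothelium 4 of 6 markers were below 0, beside the same 53% of all genes. Of 3 satellite cell markers 1 was below 0, and MYOD1 was called higher (log2(fold change) 0.86, SE 0.19, edgeR adjusted p = 0.0258), beside 2.98% of all genes called. Of 7 neutrophil genes with a row, CSF3R alone passed the filter, and the summed level was between 0.0650 and 3.11 CPM in all libraries. The part of fibre content, fibroblasts and fat in the lower leukocyte and interferon values was not tested.

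The comparison of UL with control asks about the seaweed alone. No member was called by edgeR, and neither was any other gene (0% of 14203), whereas DESeq2 on all libraries called 1.61% of the genes it gave an adjusted p-value and no member, with no adjusted p-value for 6 of the 22 leukocyte markers. At an unadjusted p-value under 0.05, 0 of the 22 leukocyte markers and 2 of the 11 interferon-response genes (ISG15 and IFIH1) were lower, beside 5.01% of all genes, and no member was higher, beside 5.84% of all genes. The ranges of UL and control overlapped for every member, whereas 0.359% of all genes were lower and 0.493% higher without overlap. Values below 0 were found for 20 of the 22 leukocyte markers and 11 of the 11 interferon-response genes, beside 50.5% of all genes. The medians were -0.25 and -0.32, against -0.003 over all genes.

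C3 had the smallest p-value of the leukocyte markers that were below 0 in UL vs control, with a log2(fold change) of -0.84 (SE 0.52, edgeR adjusted p = 0.600). CD3E, the co-receptor chain of the T cell receptor, had the smallest of those above 0 at 0.28 (SE 0.51, adjusted p = 0.893), a sign that turned when single libraries were left out. PTPRC was at -0.54 (SE 0.40, adjusted p = 0.676) and CD163 at -0.29 (SE 0.32, adjusted p = 0.794). CD74 was at -0.005 (SE 0.20, adjusted p = 0.996), with no settled sign.

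ISG15 was at -2.04 (SE 0.66, edgeR adjusted p = 0.272) in UL vs control, and at -0.37 (adjusted p = 0.735) without control piglet 21. Its UL values lay inside or below the control range, from 5.72 to 22.2 CPM. MX1 was at -0.22 (SE 0.55, adjusted p = 0.923), and the sign turned when a library was left out.

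The comparison of ULU with UL isolates the enzyme. No member was called by edgeR, against 0.0352% of all genes, and 0 of 22 and 0 of 11 members were lower or higher at an unadjusted p-value under 0.05, beside 4.68% of all genes lower and 6.16% higher. The ranges overlapped for every member, whereas 0.662% of all genes were lower and 1.09% higher without overlap. DESeq2 on all libraries gave an adjusted p-value for 2 of the 22 leukocyte markers and none of the 11 others, and called none. Of the 2088 genes that it gave an adjusted p-value in this comparison, it called 12.1%. CD3E was lower at an unadjusted p-value under 0.05 in that fit. Values below 0 were found for 21 of 22 and 11 of 11 members, beside 53% of all genes, with medians of -0.23 and -0.28. Both this comparison and ULU vs control use the same ULU libraries, and both comparisons with control use the same control libraries.

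CD3E was at -1.07 (SE 0.55, edgeR adjusted p = 0.50) in ULU vs UL, the smallest p-value of the leukocyte markers below 0, and CD4, the co-receptor of helper T cells, was the 1 marker above 0 at 0.11 (SE 0.38, adjusted p = 0.952), a sign that turned when a library was left out. Among interferon-response genes IRF1 had the smallest p-value, at -0.33 (SE 0.23, adjusted p = 0.655). PTPRC was at -0.50 (SE 0.42, adjusted p = 0.749), CD163 at -0.33 (SE 0.34, adjusted p = 0.796) and CD74 at -0.10 (SE 0.21, adjusted p = 0.909). ISG15 was at -0.56 (SE 0.70, adjusted p = 0.840) and MX1 at -0.76 (SE 0.58, adjusted p = 0.710).

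ULU piglet 42 also decided the leukocyte count in ULU vs UL. Without it, 10 of the 22 markers were lower in ULU at the unadjusted limit, beside 5.53% of all genes, with a median of -0.90. Without ULU piglet 43, 0 of the 22 were lower, beside 4.13% of all genes, 13 were below 0 and the median was -0.022.

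Other genes of the same pathways were read from lists of further symbols. Of 60 other interferon pathway genes 52 were tested, and in ULU vs control 2 were called, both lower, a share of 3.85% beside 2.98% of all genes. They were IFIT5, a relative of IFIT1 (42.8 ± 7.79 CPM (SD, n = 6) in control and 25.3 ± 3.73 (SD, n = 5) in ULU, log2(fold change) -0.76, SE 0.15, edgeR adjusted p = 0.0127), and CMPK2, a mitochondrial nucleotide kinase induced by interferon (6.46 ± 0.456 CPM (SD, n = 6) and 3.63 ± 0.895 (SD, n = 5), -0.83, SE 0.19, adjusted p = 0.0268). Every ULU piglet lay below every control piglet for both genes, which 1.09% of all genes did. Calls of genes outside the members, here and for TRAT1, TNNT3 and MYOD1, were read from the model of all 17 libraries only. They were not checked with other settings or with libraries left out.

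At an unadjusted p-value under 0.05, 21 of the 52 were lower and 0 higher in ULU vs control, beside 8.78% and 10.1% of all genes, and 46 had values below 0 with a median of -0.48. In UL vs control 0 were called, 8 were lower (beside 5.01% of all genes) and the median was -0.20, with SAMHD1, which removes deoxynucleotides, at the smallest p-value (-0.68, SE 0.17, edgeR adjusted p = 0.155). In ULU vs UL 0 were called, 9 were lower and 1 was higher, beside 4.68% and 6.16% of all genes.

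Of 25 other T and NK lymphocyte symbols 21 had a row, and 12 passed the filter on low counts and were tested. Of these 12, 1 (8.33%, beside 2.98% of all genes) was called in ULU vs control. It was TRAT1, an adaptor of the T cell receptor (2.12 ± 0.803 CPM (SD, n = 6) in control, 0.569 ± 0.146 (SD, n = 5) in ULU, log2(fold change) -1.89, SE 0.46, edgeR adjusted p = 0.0336), whose ranges did not overlap. The gap was narrow and the level low, from 0.394 to 0.778 CPM in ULU with the lowest control piglet at 0.818 CPM. All 12 were below 0 in ULU vs control and 4 were lower at the unadjusted limit, which 8.78% of all genes passed in that direction. The counts that follow are also of ULU vs control and have the same background. No other pan-leukocyte gene was called (21 tested, 3 lower at the unadjusted limit, 21 below 0, median -0.72), and no other macrophage gene (25 tested, 2 lower, 22 below 0, median -0.34). Of 27 complement and inflammatory genes 0 were called and 6 were lower, with the chemokine CCL19 at the smallest p-value (-1.94, SE 0.55, adjusted p = 0.0622). Of 5 B lymphocyte genes tested 0 were called, 0 were lower and 4 were below 0, with a median of -0.55, and CD79A, a chain of the B cell receptor and the gene with the smallest p-value, was at 0.46 (SE 0.35, adjusted p = 0.511). Of 3 mast cell genes tested 0 were called, and none was lower at the unadjusted limit.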

How the data were processed

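Single 75 nt reads were trimmed (fastp) and aligned (hisat2) by the authors, who deposited unnormalized counts per gene made with featureCounts (version 2.0.1 per the file header, on the Ensembl annotation of Sscrofa11.1). The header shows no option for strand, so overlapping genes on opposite strands cannot be told apart. A deposited mean over the libraries was used only as a check. RNA of 6 piglets per diet is described in the methods, and 5 ULU libraries were analysed here.

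Symbols were matched by Ensembl identifier (15029 of 31908 genes), and RefSeq spans of the same assembly showed rows over several genes. Counts were tested with edgeR 4.0.16 in R 4.3.3 (TMM, filter on low counts, quasi-likelihood F test, 1 model of 17 libraries, Benjamini-Hochberg over 14203 genes, threshold 0.05). The SE is the absolute log2(fold change) divided by the square root of F. DESeq2 1.42.0 was an alternative, and its missing adjusted p-values stayed missing. Tests were checked on simulated counts with larger changes than most members had, genes drawn independently and no library made to stand apart. That check does not cover small changes in genes that move together, as the members do. Correlations used scipy 1.17.1. Fold changes are given for PTPRC, CD163, CD74, ISG15 and MX1, for called members, and for the member with the smallest p-value in each group, comparison and direction, while genes of the other lists are named only where called or with the smallest p-value. C1QC, IFIH1, IFIT1, GBP2, IRF1 and RSAD2 were singled out in ULU vs control after their values were seen. The members and lists were chosen with earlier results of these data known. Library sizes ranged from 16137365 to 26546810 counted reads.

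The authors' own test results, the protein data and sequences of the members were not used here.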

Additional observations from a re-analysis of the deposited data

Results flagged for a closer look

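Each member was screened within each diet for a library set apart from the others by Dixon's test on CPM at the 95% level. Chance passes it in about 1 group of 20 if the values are normally distributed, which CPM need not be. Of 99 groups, 12 were passed, in 11 genes. ULU piglet 42 was set apart at the top of its diet for 8 leukocyte markers, which were CD68 (17.6 CPM), CSF1R (49.9 CPM), TYROBP (25.7 CPM), FCER1G (23.9 CPM), ITGAM (18.5 CPM), C3 (26.9 CPM), TLR2 (7.54 CPM) and TLR4 (13.4 CPM). These genes rise and fall together between piglets, so the 8 flags are not separate events. The same library had 143578 CPM of muscle fibre markers, the lowest of the ULU libraries, and 235 CPM of other pan-leukocyte genes, the highest of them.

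Among interferon-response genes, ISG15 was set apart in control piglet 21 (207 CPM, with 27.7 CPM in the next control piglet) and in UL piglet 27 (22.2 CPM, with 11.7 CPM in the next). RSAD2 was set apart in UL piglet 27 (14.7 CPM), and GBP2 in ULU piglet 44 (6.95 CPM).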

How the results depend on the processing

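No paired analysis was possible because the diets share no replicate numbers. With another normalization, filter, tool, model of 2 diets, covariate or fold change limit, the calls of members changed only with DESeq2 on all libraries, which called 2 interferon-response genes in ULU vs control, ISG15 among them (-2.60, adjusted p = 0.0108). Counts at an unadjusted p-value under 0.05 moved to 1 leukocyte marker in UL vs control with the mitochondrial share in the model. There they moved to 1 interferon-response gene with upper-quartile normalization or with DESeq2 on 2 diets. That DESeq2 model gave ISG15 no p-value, adjusted or not, in either comparison with control (-2.05 and -2.60), so ISG15 could not be counted. In ULU vs control they moved to 1 leukocyte marker with DESeq2 or edgeR on 2 diets, and in ULU vs UL to 1 with either DESeq2 model. CD74 turned to 0.0047 (upper-quartile) and 0.11 (mitochondrial share) in UL vs control and to 0.060 (mitochondrial share) in ULU vs control. With the mitochondrial share, which differs between the diets, the median of the interferon-response genes was -0.73 for UL vs control, with -1.06 when ULU was compared with control. The cause of these shifts was not tested.

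Leaving out 1 library at a time gave the ranges that follow, whose causes were not tested. In UL vs control 0 to 1 leukocyte markers and 0 to 4 interferon-response genes were lower at the unadjusted limit. The share of all genes ran from 4.15% to 6.27%. The medians of the 2 groups ran from -0.40 to -0.07 and from -0.56 to -0.09, and 14 to 21 and 9 to 11 were below 0. In ULU vs control 0 to 17 and 4 to 8 were lower, beside 6.96% to 10.6% of all genes. Calls numbered 0 to 1 and 0 to 2, beside 1.02% to 5.67% of all genes. The medians ran from -0.94 to -0.29 and from -0.82 to -0.50, and 20 to 22 leukocyte markers were below 0. In ULU vs UL 0 to 10 and 0 to 1 were lower, beside 3.43% to 5.53% of all genes. The medians ran from -0.90 to -0.022 and from -0.45 to -0.10, and 13 to 22 leukocyte markers were below 0. The log2(fold change) changed sign for CD3E (-0.032 to 0.47), CD74 (-0.079 to 0.14) and MX1 (-0.61 to 0.24) in UL vs control, for CD74 (-0.34 to 0.042) in ULU vs control and for CD4 (-0.051 to 0.29) in ULU vs UL. All genes called in ULU vs control numbered 423 with edgeR, 1069 with DESeq2 on all libraries, 825 with DESeq2 and 111 with edgeR on 2 diets, 228 without the filter and 8 with the mitochondrial share. T cell markers had as few as 5 reads in a library, which limits what can be seen of them.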
